A study of Drosophila melanogaster with 9 samples.

Results

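The genes described here are those that differed from control under both Blimp-1 overexpression and Blimp-1 RNAi in the pupal eye of Drosophila melanogaster. The authors listed 710 genes for overexpression and 373 for RNAi, 904 in all, and 179 genes stand in both lists. They are 25.2% of the overexpression list and 48.0% of the RNAi list. Because only these genes have values in all 9 libraries, they are the ones in which overexpression can be set directly against RNAi, with control as a reference.

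Overexpression animals were lGMR GAL4>UAS Blimp-1, RNAi animals were lGMR GAL4>Blimp-1 RNAi, and control animals were lGMR GAL4/+, which carried the driver and no UAS construct. Each genotype had 3 libraries, made by stranded mRNA sequencing from 250 ng of total RNA of retinas and optic lobes extracted as 1 sample, without other brain tissue. All pupae were 48 h after puparium formation at 25 °C. lGMR GAL4 drives expression in the developing eye, so optic lobe cells in the same extract may not carry the manipulation, and a change confined to the retina may be diluted in these values. The labels do not say whether libraries of a genotype came from separate dissections, so p-values measure the spread between these libraries.

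Blimp-1 is a zinc finger transcription factor induced by the moulting hormone ecdysone, and in Drosophila it represses transcription, with ftz-f1, an ecdysone-regulated nuclear receptor gene, as its best known target. The pulse of ecdysone and the decay of Blimp-1 time later steps of pupal development. In the eye this is the period in which the corneal lens, a chitin and protein cuticle, is laid down over each ommatidium by cone and pigment cells, and in which pigment cells begin to build the pteridine and ommochrome eye pigments.

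Neither Blimp-1 nor ftz-f1 is among the 179 genes, and both serve here only to check the labels. Blimp-1 stood on the overexpression list. Its 3 overexpression libraries held 23252, 9467 and 18277 normalized counts, 20.3-fold the control mean of 836.7 ± 76.7 (SD, n = 3). It was not listed for RNAi, so its level there is not known from these values. ftz-f1 stood on the RNAi list, where RNAi libraries averaged 46.6 ± 6.08 and control libraries 5.44 ± 1.81 normalized counts (SD, n = 3 each), 8.57-fold higher in RNAi.

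A gene was listed when its log2 fold change against control was at least 1 in size with an adjusted p under 0.05 in the authors' test. The members just inside that limit, by the authors' deposited table for RNAi, were dyl, Frl and CG40485, at log2 fold changes of -1.001, -1.015 and 1.002. For overexpression they were fj, Clic and CG10352, at -1.002, -1.013 and 1.003 in the authors' deposited table. Genes just outside the limit have no values in these tables. Both distances from control chose the members, so the side of control on which a gene lies is a description and is not tested here.

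The recovered reads in the 179 genes numbered 432317 to 610981 per overexpression library, 282442 to 366623 per RNAi library and 307198 to 617879 per control library. Over these genes, overexpression library 2 stood farthest from its replicates, with a median absolute log2 difference of 0.49 from the mean of the other 2, against 0.22 to 0.36 in the remaining 8 libraries. It is also the overexpression library with the least Blimp-1. Of 19 photoreceptor markers, 9 were listed for overexpression, 6 of them higher than control and 3 lower, with a summed level of 68618 to 83291 normalized counts in overexpression against 15750 to 20046 in control. In RNAi 1 of the 19 was listed, chp, at 8467 to 17427 against 25179 to 28494 in control. Of 10 pigment and cone cell markers, 5 were listed for overexpression, 4 higher and 1 lower, and 5 for RNAi, 2 higher and 3 lower. Those listed for overexpression summed to 81634 to 110845 normalized counts there, against 31520 to 37689 in control. Those listed for RNAi summed to 15113 to 17045 there, against 27210 to 30566 in control. The sums are over different genes and share only cd, Pu and kar, which are among the 179 genes. Of 7 glial marker genes, 4 were listed for overexpression and all 4 were higher there, with a summed level of 12172 to 15147 normalized counts against 4973 to 5378 in control. None of the 7 was listed for RNAi. Of 9 hemocyte markers, 4 were higher in overexpression, summing to 937 to 1528 normalized counts against 224 to 317 in control, and 1, Ppn, was lower in RNAi, at 479 to 666 against 1647 to 2203. In overexpression the muscle marker Zasp66 was higher, at 68.9 to 143 against 3.36 to 17.3 in control, the fat body marker Tsf1 was higher, at 21627 to 29576 against 10820 to 11757, and the neuronal marker Rim was lower, at 112 to 339 against 577 to 1231. In RNAi 2 of 7 muscle markers were listed, 1 higher and 1 lower, and no fat body or neuronal marker was. None of the glial, hemocyte, muscle, fat body, neuronal or photoreceptor markers counted here is among the 179 genes. Other markers of these cell types were not searched for. Unlisted markers have no values, so whether any is at 0 is not known. In whole tissue, fewer cells of a type and less RNA per cell cannot be told apart, and the part of these marker shifts in the differences below was not tested.

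Most genes on both lists lay on the same side of control in both genotypes. Of the 179 genes, 78 were higher than control in both overexpression and RNAi, 61 were lower in both, 27 were higher in overexpression and lower in RNAi, and 13 were lower in overexpression and higher in RNAi. Set directly against RNAi, overexpression differed in 69 of the 139 genes on the same side of control (49.6%), where the choice of genes fixes neither direction, by limma on log2(normalized count + 1) with Benjamini-Hochberg adjustment over all 179 genes. Of the 69, 38 were higher in overexpression (27.3% of 139) and 31 lower (22.3%). The fit also holds the 40 genes on opposite sides, whose difference is fixed by how they were chosen. All 40 passed, which makes 109 of 179 (60.9%), and nothing is read from their calls.

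In 78 of the 139 genes on the same side (56.1%) the overexpression and RNAi libraries did not overlap (65.9% of all 179, the 40 included). The differences split both ways. Of the 78 genes higher than control in both genotypes, 27 were higher in overexpression than in RNAi (34.6%), 19 were lower (24.4%) and 32 did not pass the test. Of the 61 lower in both, 11 were higher in overexpression (18.0%), 12 were lower (19.7%) and 38 did not pass. The differences were at least 2-fold in 37 of the 46 called genes of the first group, 21 higher and 16 lower, and in 17 of the 23 of the second, 9 higher and 8 lower. The median absolute log2 difference between overexpression and RNAi was 0.95 among genes higher in both and 0.49 among genes lower in both, against 0.73 over the 139 genes.

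The balance of the directions depends on how the libraries are scaled. The median log2 difference over the 179 genes was 0.21 with the deposited scaling and -0.09 with TMM factors estimated from these genes alone. With TMM the called genes on the same side split into 30 higher and 42 lower in overexpression, against 38 and 31 with the deposited scaling. The split was then 21 higher and 26 lower among genes above control in both, and 9 higher and 16 lower among genes below control in both. TMM takes most genes as unchanged and scales the libraries so that the given genes balance. All 179 were chosen as changed from control, so a shift of the median and of the split is built into that scaling. The TMM results show how far calls depend on the scale, not which scale is right. All 139 genes were themselves chosen by their change from control, by tests that used the same libraries, so these p-values are not independent of that choice.

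**Figure D1:**
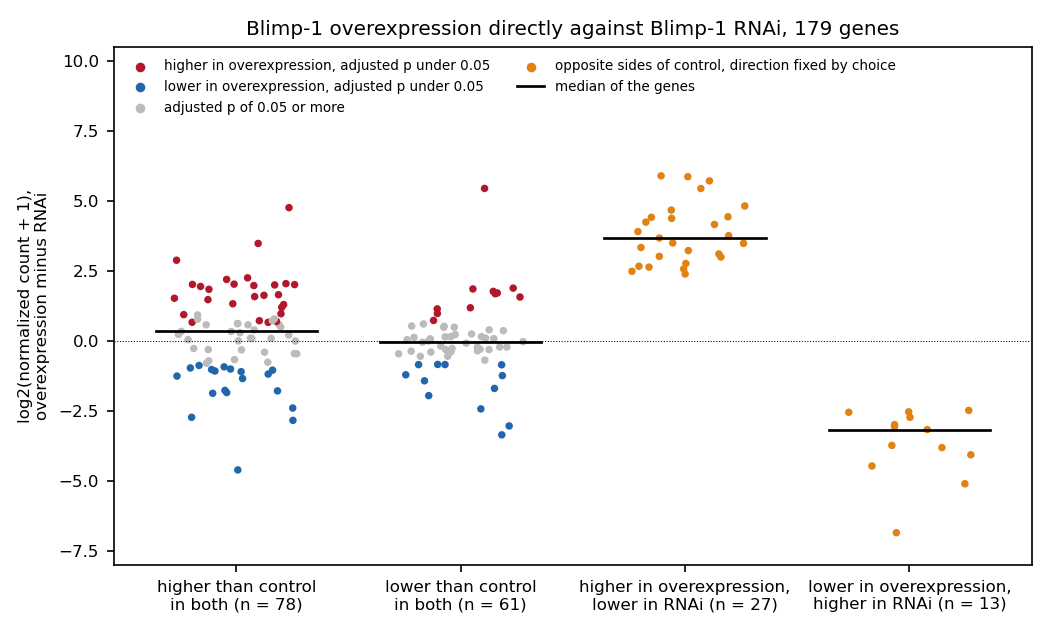
Difference of overexpression minus RNAi in log2(normalized count + 1) for the 179 genes, 1 point per gene, in 4 columns by side of control; the black bar is the median of the column. Genes higher or lower than control in both genotypes spread on either side of 0, with medians of 0.34 and -0.02, while genes on opposite sides of control have medians of 3.68 and -3.16, fixed in direction by how the genes were chosen.

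Among the 27 genes that were higher than control in overexpression and lower in RNAi were an ecdysone-inducible gene, a juvenile hormone binding protein gene and several enzymes. Their log2 differences ran from 2.40 to 5.90, and for every one of the 27 the lowest overexpression library was above the highest RNAi library, which their choice by opposite sides of control favours. The 6 largest were CG42808, ImpL1, CG2016, CG3339, CG34460 and CG13077. By the authors' RNAi entries, enzymes were the largest class, with 9 of the 27, beside 61 of all 179 genes. Secreted and cytoskeletal genes followed with 4 each, beside 18 and 8 of the 179. Of the cytoskeletal genes, CG2157, CG5104 and Strn-Mlck had another class in the authors' overexpression entries. Overexpression was the genotype farther from control in 15 of the 27, RNAi in 12.

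ImpL1 (FBgn0001256, dm6 3L 13382765 to 13383999) is an ecdysone-inducible gene, first found in imaginal discs, that encodes a secreted protein. It had 163664, 135119 and 155766 normalized counts in the overexpression libraries, against 1965, 2224 and 3950.3 in the RNAi libraries and 7439.5, 13274 and 13666 in the control libraries. The overexpression libraries lay close together, the RNAi libraries lay below all 3 control libraries, and the ratio of the manipulated genotypes was 55.9-fold. CG2016 (FBgn0250839, dm6 3R 4956999 to 4961351), now named Jhbp2 and a member of the juvenile hormone binding protein family, had 44585, 51851 and 39169.7 normalized counts in the overexpression libraries, against 666, 895 and 1035 in the RNAi libraries and 1574, 2283 and 2320.2 in the control libraries. It differed 52.3-fold, most of it from the side of overexpression, which lay 21.95-fold above control while RNAi lay 2.38-fold below.

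CG42808 (FBgn0261990, dm6 2R 13573618 to 13574257), an uncharacterized gene, had 3385, 4301 and 3768 normalized counts in the overexpression libraries, against 41.8, 91.03 and 64.6 in the RNAi libraries and 191, 274 and 316 in the control libraries. That is 57.995-fold, the largest ratio in the group, and no library of one genotype came near the other. CG3339 (FBgn0039510, dm6 3R 27294286 to 27322325), which the authors class as cytoskeletal, was close to the detection limit in RNAi, with 425, 208 and 319 in overexpression, 6.51, 4.85 and 6.80 in RNAi and 42.3, 67.2 and 38.7 in control libraries. Its 52.4-fold ratio therefore rests on few RNAi reads, and unlike CG2016 it moved about as far from control in both directions. CG34460 had 159, 327 and 254 in overexpression, 6.51, 7.28 and 8.50 in RNAi and 41.6, 76.8 and 61.1 in control libraries, 33.2-fold, also with few reads in RNAi. CG13077, classed as an enzyme, had 2928, 5146 and 3333 in overexpression, 124, 165 and 145 in RNAi and 306, 354 and 326 in control libraries, and differed 26.3-fold.

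Further genes of known function had the same pattern. CAH2, a carbonic anhydrase, had 10719.9, 11012 and 9505 normalized counts in the overexpression libraries, against 787, 726 and 579 in the RNAi libraries and 1669, 1502 and 1689 in the control libraries, a 14.9-fold difference. Est-6, an extracellular esterase whose gene begins 5470 bases from the end of CAH2, had 2078, 2639.6 and 2168 in overexpression, 509.5, 368 and 244 in RNAi and 742, 773 and 917 in control libraries, 6.14-fold. In both neighbours the RNAi libraries were below every control library and the overexpression libraries above, an order that their choice favours. Strn-Mlck, a large muscle-type myosin light chain kinase of the titin family, had 3678, 2240.2 and 2625 in overexpression, 89.3, 132 and 198 in RNAi and 558, 502 and 515 in control libraries, 20.4-fold. The cuticle protein gene Cpr51A had 838, 1383 and 905 in overexpression, 46.5, 42.5 and 51.02 in RNAi and 65.8, 128 and 173 in control libraries, 22.3-fold. Its RNAi libraries were tightly grouped and overexpression library 2 was the highest of the 9.

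In this direction also lay yellow-h, of the yellow family known for pigmentation genes, with 1653, 4037 and 2275 in overexpression, 261, 248 and 282 in RNAi and 605, 959.6 and 1224 in control libraries, 10.1-fold. Overexpression library 2 was again the highest. Mppe, a metallophosphoesterase needed in photoreceptors for the maturation of rhodopsin, had 5573, 8942 and 7429.6 in overexpression, 1144, 1327 and 1158 in RNAi and 2233, 3280.1 and 3199.7 in control libraries, 6.05-fold. The receptor tyrosine kinase gene Cad96Ca had 6414, 4218 and 6272 in overexpression, 513, 410.2 and 569 in RNAi and 2267, 2833 and 2464 in control libraries, 11.3-fold. Here RNAi was the farther from control. Among ligands, the neurotrophin-like Toll family ligand spz5 had 508, 375 and 486 in overexpression, 56.7, 43.7 and 55.3 in RNAi and 136, 115.2 and 121 in control libraries, 8.80-fold. The sulfotransferase gene pip, which acts upstream of Toll signalling in the embryo, had 6225, 6203 and 6756 in overexpression, 894, 1117 and 1465 in RNAi and 2318, 3306 and 3116 in control libraries, 5.52-fold. In each of these 5 genes the genotypes did not overlap with each other or with control, which their choice by opposite sides of control favours.

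**Figure D2:**
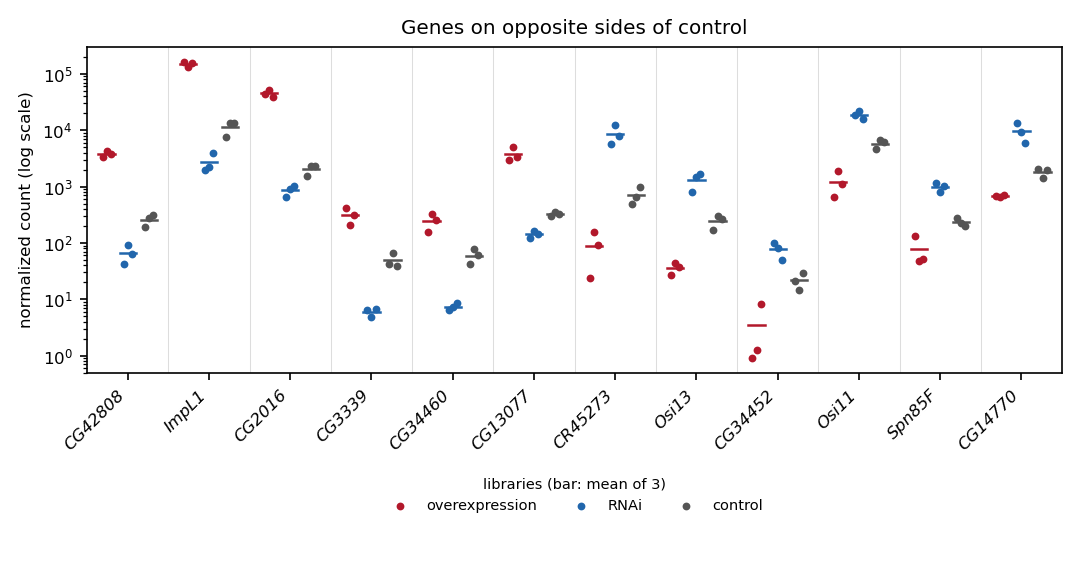
Normalized counts on a log axis of the 6 genes with the largest difference in each direction among genes on opposite sides of control, 1 point per library with overexpression left of RNAi and control last; the bar is the mean of 3 libraries. The first 6 genes have overexpression at the top and RNAi at the bottom with control between, and the last 6 the reverse.

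The 13 genes that were lower in overexpression and higher in RNAi included several of apical extracellular matrix and chitin. Their log2 differences ran from -6.85 to -2.48, with a median of -3.16. No overexpression library reached an RNAi library in any of them, which their choice by opposite sides of control favours. All 3 genes of the chitin list on opposite sides of control, obst-A, verm and Gasp, were in this group. The group holds 13 of all 40 genes on opposite sides, and 3 genes allow no reading against that share. obst-A (FBgn0031097, dm6 X 20239855 to 20243209), which encodes a chitin-binding protein of cuticle, had 2472, 2198 and 1774 normalized counts in the overexpression libraries, against 20427, 18879 and 18004 in the RNAi libraries and 8700.5, 4617 and 5754 in the control libraries, 8.89-fold lower in overexpression than in RNAi. verm (FBgn0261341, dm6 3L 19690033 to 19695260), which encodes a chitin deacetylase, had 3356, 3182 and 3207 in overexpression, 29663, 25339 and 22669 in RNAi and 15918, 9065 and 10519.5 in control libraries, 7.97-fold lower in overexpression. Gasp (FBgn0026077, dm6 3R 6088799 to 6100887), which encodes another chitin-binding protein, had 5216, 4589 and 5526 in overexpression, 34489.9, 25441 and 29046 in RNAi and 15689, 11648 and 13291 in control libraries, 5.80-fold lower in overexpression. In each of these 3 the control libraries lay between the others without overlap, which their choice also favours.

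The most extreme ratio of the whole comparison belonged to CR45273 (FBgn0266811, dm6 2R 17131116 to 17131552), now annotated as the protein-coding gene CG45273 and listed by the authors as lncRNA. It had 23.7, 156 and 90.9 normalized counts in the overexpression libraries, against 5681, 12169 and 7814 in the RNAi libraries and 486, 656 and 970.5 in the control libraries. The overexpression mean was 94.98-fold below the RNAi mean, and 149-fold below it without overexpression library 2. Another pair of genes, of the Osiris family, which encodes putative membrane proteins expressed in epithelia that secrete cuticle, had the same direction.

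Osi13 had 27.3, 43.4 and 37.8 in overexpression, 795, 1481 and 1661 in RNAi and 173, 307 and 263 in control libraries, 36.3-fold lower in overexpression than in RNAi. Osi11 had 651, 1889 and 1105 in overexpression, 18422, 21756 and 15919 in RNAi and 4557, 6624 and 6145 in control libraries, 15.4-fold lower in overexpression. CG14770, classed as cuticle, had 683, 651 and 719.9 in overexpression, 13444, 9267 and 6014 in RNAi and 2034, 1438 and 1993 in control libraries, 13.99-fold lower. In all 3, RNAi libraries were more than 2-fold above every control library.

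Spn85F, of the serpin family of protease inhibitors, had 131, 48.5 and 52.1 in overexpression, 1142, 812 and 1021 in RNAi and 279, 227 and 203 in control libraries. The overexpression mean was 12.8-fold below RNAi, and 19.7-fold without overexpression library 1, the highest of the 3. CG34452 was near the detection limit in overexpression, with 0.910, 1.28 and 8.17 in overexpression, 99.5, 82.5 and 50.2 in RNAi and 21.5, 14.4 and 29.9 in control libraries, and its 22.4-fold ratio became 70.7-fold without overexpression library 3. Dif, an NF-kappaB transcription factor of the Toll pathway, had 175, 125 and 172 in overexpression, 1286, 668 and 767 in RNAi and 464, 323 and 351 in control libraries, 5.77-fold lower in overexpression. CG10924, now named Pepck2 for its phosphoenolpyruvate carboxykinase family, had 404, 321 and 427 in overexpression, 2143, 2293 and 2255 in RNAi and 831, 843 and 845 in control libraries, 5.81-fold lower. In these 4 genes the control libraries lay between the other genotypes without overlap, again favoured by their choice.

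Turning to genes higher than control in both genotypes, Pu showed the widest gap in favour of overexpression. Pu (FBgn0003162, dm6 2R 21175315 to 21182608) encodes GTP cyclohydrolase I, the first enzyme of pteridine synthesis. It had 38774, 28785 and 31527 normalized counts in the overexpression libraries, against 1133, 1237 and 1252 in the RNAi libraries and 530.0, 568 and 510.2 in the control libraries. Every overexpression library was above every RNAi library, and every RNAi library was above every control library. Overexpression was 27.4-fold above RNAi (log2 difference 4.76, SE 0.19, limma adjusted p = 2.68e-06), and lay 61.6-fold above control, against 2.25-fold for RNAi.

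CG12995 (FBgn0030826, dm6 X 17209368 to 17209997), uncharacterized, had 2469, 2567 and 1558 normalized counts in the overexpression libraries, against 233, 216 and 138 in the RNAi libraries and 8.73, 18.2 and 14.97 in the control libraries, 11.2-fold higher in overexpression (log2 difference 3.48, SE 0.30, limma adjusted p = 4.34e-05). CG15544 had 681, 429.9 and 744 in overexpression, 79.03, 81.3 and 81.6 in RNAi and 24.9, 23.03 and 32.4 in control libraries, 7.67-fold (log2 difference 2.88, SE 0.27, limma adjusted p = 5.47e-05). In both, every RNAi library was above every control library. nec (FBgn0002930, dm6 2R 7156477 to 7158241), a serpin that restrains Toll pathway activation, had 903, 656 and 727 in overexpression, 163, 125 and 191 in RNAi and 86.7, 60.5 and 68.6 in control libraries, 4.77-fold higher in overexpression (log2 difference 2.26, SE 0.25, limma adjusted p = 0.00014). CG14984 had 338, 380.2 and 316 in overexpression, 90.2, 77.7 and 57.8 in RNAi and 28.2, 31.7 and 22.4 in control libraries, 4.58-fold (log2 difference 2.20, SE 0.25, limma adjusted p = 0.000155). No library of either genotype overlapped the other in these 4 genes.

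The opposite order, RNAi above overexpression with both above control, was widest in CG32037 (FBgn0052037, dm6 3L 9489502 to 9492215), a gene on the cuticle list. It had 87.5, 119.9 and 120.5 normalized counts in the overexpression libraries, against 3916, 2420.2 and 1972 in the RNAi libraries and 28.9, 48.9 and 46.1 in the control libraries. RNAi libraries exceeded the overexpression libraries 25.3-fold (log2 difference -4.60, SE 0.30, limma adjusted p = 1.21e-05), while overexpression was 2.64-fold above control. Its neighbour CG32036, which begins 268 bases from the end of CG32037 on the same strand, had 1181, 1750.3 and 1208 in overexpression, 2013, 1953 and 1107 in RNAi and 493, 244 and 387 in control libraries. The difference of CG32036 between overexpression and RNAi did not pass the test (log2 difference -0.27, SE 0.30, limma adjusted p = 0.476).

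CG14752 had 1287, 1159.7 and 682 in overexpression, 10808, 6789.7 and 5046 in RNAi and 156, 113 and 119 in control libraries, 7.24-fold lower in overexpression (log2 difference -2.83, SE 0.36, limma adjusted p = 0.000269). CG13038 had 80.2, 128 and 45.95 in overexpression, 531, 471 and 282 in RNAi and 32.9, 21.1 and 22.4 in control libraries, 5.06-fold lower (log2 difference -2.39, SE 0.42, limma adjusted p = 0.00185). RNAi libraries were above every overexpression library in both genes. thw, which the authors class among cuticle genes, had 541, 329 and 566 in overexpression, 1862, 1378 and 1918 in RNAi and 202, 127 and 135 in control libraries, 3.59-fold lower in overexpression (log2 difference -1.87, SE 0.28, limma adjusted p = 0.000671). Cralbp, named for its similarity to vertebrate retinaldehyde-binding protein, had 403, 425 and 305 in overexpression, 3168, 2658 and 1804 in RNAi and 110.2, 94.05 and 97.3 in control libraries, 6.74-fold lower (log2 difference -2.72, SE 0.27, limma adjusted p = 7.16e-05). In the annotation 82.5% of the exon bases of Cralbp are shared with genes on the other strand, PGRP-LD and Pmi. No source used here says whether the authors counted by strand, so reads of these genes cannot be told apart.

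Among genes higher in both, the 4 smallest differences were those of CG13022, CG14688, CG42326 and CG11353. CG13022 had 1695, 3063 and 1512 in overexpression, 2131, 2972 and 1241 in RNAi and 613, 248 and 439 in control libraries, with library 2 the highest in both genotypes. Its log2 difference had a 95% interval of -0.93 to 0.93, which leaves room for a change of nearly 2-fold in either direction. For CG14688, CG42326 and CG11353 the 95% intervals of the log2 difference were -0.73 to 0.75, -0.71 to 0.81 and -0.66 to 0.85. CG42326 stood 24.1-fold above control in overexpression and 22.3-fold in RNAi, so both genotypes were far from control while their libraries overlapped each other.

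**Figure D3:**
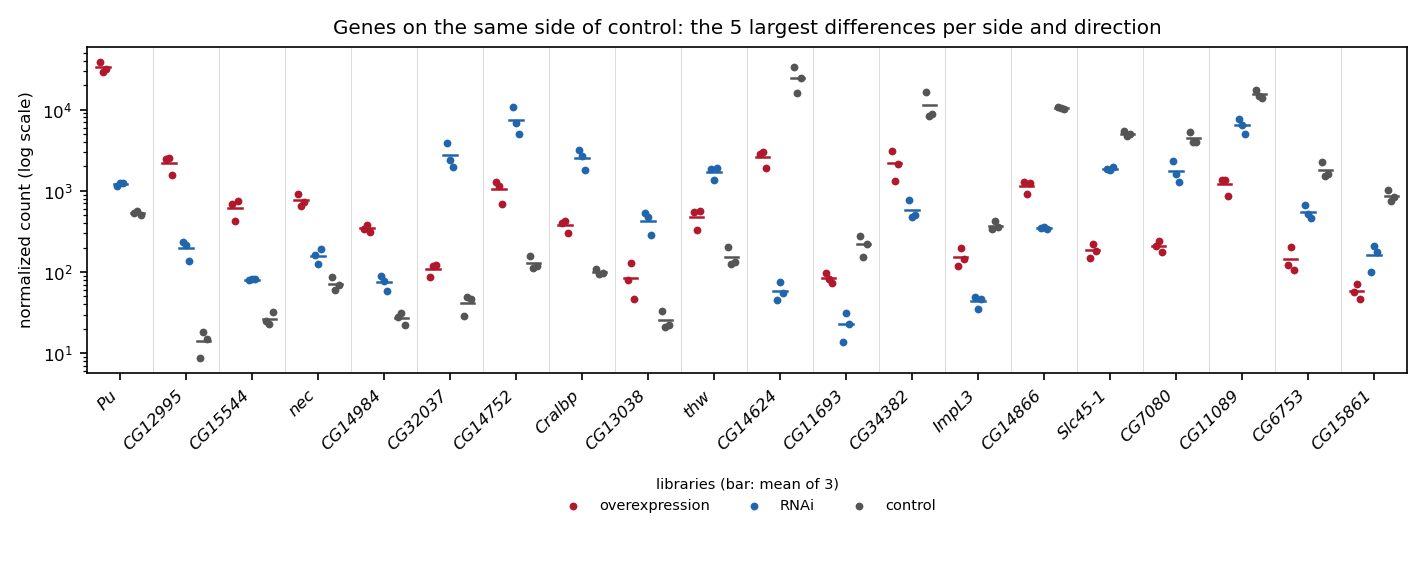
Normalized counts on a log axis of the genes with the 5 largest called differences in each direction, for genes higher and then lower than control in both genotypes, 1 point per library with overexpression left of RNAi and control last; the bar is the mean of 3 libraries. Pu and CG14624 show the widest gaps with overexpression above RNAi, CG32037 and Slc45-1 the widest with overexpression below.

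Among genes lower than control in both genotypes the middle 50% of log2 differences lay between -0.46 and 0.49, and CG14624 lay farthest outside. CG14624 (FBgn0040357, dm6 X 1206737 to 1207555), uncharacterized, had 2865, 2973 and 1915 normalized counts in the overexpression libraries, against 44.6, 75.2 and 55.3 in the RNAi libraries and 33099.6, 16212 and 24223 in the control libraries. Control libraries held the most reads, overexpression fell 9.49-fold below control, and RNAi fell 419.8-fold below it. Overexpression was 44.3-fold above RNAi (log2 difference 5.45, SE 0.29, limma adjusted p = 5.98e-06). CG11380, the nearest other member on the X chromosome, was 18.1-fold higher in overexpression than in RNAi and lay on opposite sides of control.

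ImpL3 (FBgn0001258, dm6 3L 6259105 to 6262694), now named Ldh, encodes lactate dehydrogenase. It had 119, 195 and 146 in overexpression, 49.3, 35.2 and 46.8 in RNAi and 335, 426 and 362 in control libraries, 3.51-fold higher in overexpression (log2 difference 1.77, SE 0.27, limma adjusted p = 0.000876). CG34382 had 3071, 1332 and 2169 in overexpression, 771, 472 and 509 in RNAi and 16682, 8227 and 8948 in control libraries, 3.75-fold (log2 difference 1.86, SE 0.35, limma adjusted p = 0.00239). Both genotypes were below every control library in these genes, with RNAi the lowest. CG14866 had 1295, 909.6 and 1261 in overexpression, 349.6, 357 and 334 in RNAi and 10788, 10477 and 10053 in control libraries, 3.33-fold (log2 difference 1.72, SE 0.21, limma adjusted p = 0.000268). CG11693 was low throughout, with 96.6, 81.7 and 72.5 in overexpression, 13.9, 31.6 and 22.96 in RNAi and 279, 154 and 222 in control libraries, and was 3.66-fold higher in overexpression (log2 difference 1.89, SE 0.32, limma adjusted p = 0.00149).

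In the other direction, Slc45-1 (FBgn0035968, dm6 3L 9203065 to 9208853), a sugar transporter of the SLC45 family, had 150.3, 221 and 182 normalized counts in the overexpression libraries, against 1846, 1783 and 1977 in the RNAi libraries and 5395, 4674 and 4954 in the control libraries. The 3 genotypes did not overlap, and overexpression was 10.1-fold below RNAi (log2 difference -3.35, SE 0.22, limma adjusted p = 1.09e-05). CG7080, which the authors class as a transcription factor, had 208, 239 and 176 in overexpression, 2353, 1598 and 1285 in RNAi and 5303, 4024 and 3978 in control libraries, 8.42-fold lower in overexpression (log2 difference -3.03, SE 0.28, limma adjusted p = 4.99e-05). CG11089 had 1373, 1361 and 875 in overexpression, 7764, 6477 and 5048 in RNAi and 17536, 14797 and 13747 in control libraries, 5.34-fold lower (log2 difference -2.43, SE 0.26, limma adjusted p = 0.000123). CG6753 and CG15861 were 3.77-fold and 2.79-fold lower in overexpression, with limma adjusted p of 0.000958 and 0.00707. CG15861 overlaps CG3770 on the other strand by 63 bases, so some of their reads may be shared.

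The 4 genes with the smallest differences on this side were CG10211, Nox, rdhB and CG34325. rdhB (FBgn0038946, dm6 3R 22351696 to 22356264), a retinol dehydrogenase of pigment cells that serves chromophore synthesis, had 13252, 20632 and 11947 normalized counts in the overexpression libraries, against 13717, 18567 and 11865 in the RNAi libraries and 35147, 37656 and 40699.8 in the control libraries. Library 2 was the highest of both manipulated genotypes, whose values overlapped, and all 6 were below the control libraries. The 95% interval of the log2 difference was -0.64 to 0.71. Nox, an NADPH oxidase, had 91.1, 128 and 147 in overexpression, 138, 101 and 129 in RNAi and 516, 621 and 546 in control libraries, with an interval of -0.66 to 0.62. The intervals were -0.57 to 0.48 for CG10211 and -0.79 to 0.88 for CG34325, so small differences in either direction were not resolved in these 4 genes with 3 libraries per genotype.

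The pigment and tanning list held 6 members. Of the 5 on the same side of control, Pu and kar were higher in overexpression than in RNAi, Slc45-1 was lower, and cd and yellow-e did not pass, beside 27.3% higher and 22.3% lower over the 139 genes. yellow-h lay on opposite sides of control. The overexpression libraries were all above the RNAi libraries in 5 of the 6, and all below them in Slc45-1. The 5 include yellow-h, whose choice by opposite sides of control favours that order. Over all 179 genes they were all above in 70 and all below in 48. A list of this size allows no reading against those shares. The median log2 difference of the 6 was 0.55, against 0.21 over the 179 genes. Both medians hold genes on opposite sides of control, whose direction was fixed by their choice, so nothing is read from the contrast. Over the 139 genes on the same side the median was 0.10. Pdh, a retinol dehydrogenase of pigment cells, had 25025, 43733 and 28484 normalized counts in the overexpression libraries, against 4388, 12204 and 8515 in the RNAi libraries and 2161, 1011 and 1513 in the control libraries. Both genotypes were above control in every library, and overexpression was 3.87-fold above RNAi (log2 difference 2.03, SE 0.41, limma adjusted p = 0.00339). In the annotation 37.6% of the exon bases of Pdh are shared with a noncoding antisense gene.

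ninaD, a scavenger receptor needed to take up carotenoids for the visual chromophore, had 54.7, 101 and 68.4 in overexpression, 37.2, 35.2 and 36.6 in RNAi and 6.72, 5.76 and 13.7 in control libraries, 2.05-fold higher in overexpression (log2 difference 0.97, SE 0.27, limma adjusted p = 0.015). With TMM scaling its edgeR adjusted p was 0.0665 (range 0.00778 to 0.0665 over all alternatives). kar, an ommochrome eye colour gene related to monocarboxylate transporters, had 14952, 12719 and 9891 in overexpression, 8104, 7756 and 6983 in RNAi and 1319, 1213 and 1090.2 in control libraries, 1.64-fold (log2 difference 0.70, SE 0.22, limma adjusted p = 0.0241). That call was lost with TMM scaling (edgeR adjusted p = 0.238) and without overexpression library 1 or 2 or RNAi library 2 or 3, with limma adjusted p from 0.0636 to 0.0955 (range 0.00968 to 0.237 over all alternatives). cd, a peroxidase gene of ommochrome synthesis, was lower than control in both, with 8049, 6523 and 6623 in overexpression, 5809, 5611 and 4959.6 in RNAi and 17743, 16675 and 15998 in control libraries, and its difference did not pass (log2 difference 0.37, SE 0.19, limma adjusted p = 0.129). With replicate number as a block, the limma adjusted p was 0.0426 for cd and 0.042 for yellow-e, and both were then higher in overexpression (ranges 0.0426 to 0.89 and 0.042 to 0.852 over all alternatives).

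Of the 5 members of the chitin list, 3 lay lower in overexpression and higher in RNAi, as described, and reb was higher than control in both. Over all members 13 of 179 had the former pattern, and a list of this size allows no reading against that share. reb, whose product helps deposit chitin, had 81.1, 33.2 and 54.1 in overexpression, 218, 171 and 166 in RNAi and 18.8, 10.6 and 7.48 in control libraries, 3.29-fold lower in overexpression (log2 difference -1.78, SE 0.35, limma adjusted p = 0.00307). The chitinase-like Idgf6 had 288, 299.8 and 201 in overexpression, 263, 448 and 339 in RNAi and 96.7, 97.9 and 109 in control libraries and did not pass (log2 difference -0.40, SE 0.29, limma adjusted p = 0.27). With TMM scaling its edgeR adjusted p was 0.0400, lower in overexpression (range 0.04 to 0.608). The 4 members of the cuticle protein list were divided: CG32037 was lower in overexpression, Cpr50Cb was higher, CG13675 did not pass and Cpr51A lay on opposite sides of control. Cpr50Cb had 1047, 713 and 634 in overexpression, 290.1, 163 and 173 in RNAi and 6.05, 8.64 and 7.48 in control libraries, 3.83-fold higher in overexpression (log2 difference 1.95, SE 0.32, limma adjusted p = 0.00113). CG13675 was almost absent from control, with 81.98, 47.2 and 81.7 in overexpression, 183, 87.4 and 87.6 in RNAi and 0.670, 1.92 and 1.25 in control libraries. Its log2 difference of -0.71 did not pass (limma adjusted p = 0.151) but did so with TMM scaling (edgeR adjusted p = 0.00990, range 0.0099 to 0.418).

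Zona pellucida domain proteins anchor the apical extracellular matrix, and qsm and dyl were the 2 members of that list. qsm had 708, 536 and 595 in overexpression, 1469, 1174 and 1278 in RNAi and 242, 178 and 226 in control libraries, 2.13-fold lower in overexpression (log2 difference -1.09, SE 0.20, limma adjusted p = 0.00223). dyl, lower than control in both, had 8345, 5647 and 8149 in overexpression, 11013, 7783 and 10059 in RNAi and 21028, 19517 and 18855 in control libraries and did not pass (log2 difference -0.39, SE 0.24, limma adjusted p = 0.206). It passed with the replicate block (limma adjusted p = 0.0337) and with TMM scaling (edgeR adjusted p = 0.0400), in both as lower in overexpression (range 0.0337 to 0.492). Apart from Osi11 and Osi13, the Osiris genes Osi5 and Osi6 were lower than control in both genotypes. Osi5 had 712, 1143 and 668 in overexpression, 164, 259 and 380.1 in RNAi and 1536, 3252 and 2576 in control libraries, 3.15-fold higher in overexpression (log2 difference 1.69, SE 0.37, limma adjusted p = 0.00495). Osi6 had 15763, 12338 and 11349 in overexpression, 11877, 22419 and 25635 in RNAi and 48950.0, 59419.7 and 45504 in control libraries, with RNAi library 1 the lowest of its group, and did not pass (log2 difference -0.54, SE 0.33, limma adjusted p = 0.193). Without that library, the limma adjusted p was 0.0165, with overexpression lower (range 0.0151 to 0.44). The Osiris genes were grouped after their values were seen.

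Of the 3 ecdysone pathway members, ImpL1 was on opposite sides of control, and vri and ImpL3 were higher in overexpression than in RNAi. These are 2 of 2 genes on the same side, beside 27.3% higher over the 139, and a list of this size allows no reading against it. vri, a bZIP repressor of the circadian clock that ecdysone also induces, had 2262, 943 and 1842 in overexpression, 322, 353 and 741 in RNAi and 239, 172 and 211 in control libraries. RNAi library 3 was the highest of its group but stayed below every overexpression library, and overexpression was 3.57-fold higher (log2 difference 1.85, SE 0.43, limma adjusted p = 0.00707).

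The list of serpins and immune effectors held Spn85F, on opposite sides of control, and GNBP2, both at lower levels in overexpression than in RNAi. The serpin gene nec, described above and not on that list, lay the other way and was called higher in overexpression. A list of 2 genes allows no reading of direction. The other genes given here beside these, ea, Hayan, Timp and CG15046, were chosen after their values were seen, so their number and directions say nothing of a group. ea, which encodes the serine protease that cleaves the Toll ligand Spz in the embryo, had 336, 429 and 264 in overexpression, 99.5, 84.96 and 71.4 in RNAi and 18.8, 19.2 and 18.7 in control libraries, 4.02-fold higher in overexpression (log2 difference 1.98, SE 0.27, limma adjusted p = 0.000435). Hayan, a serine protease of melanization, had 488, 588 and 424 in overexpression, 149, 126 and 95.2 in RNAi and 12.8, 13.4 and 19.96 in control libraries, 4.05-fold higher (log2 difference 2.02, SE 0.26, limma adjusted p = 0.000316). Timp, an inhibitor of matrix metalloproteases, had 1412, 1570.5 and 1567 in overexpression, 718, 603 and 503 in RNAi and 110.2, 154 and 125 in control libraries, 2.49-fold higher (log2 difference 1.33, SE 0.20, limma adjusted p = 0.000844). No library overlapped between the genotypes in these 3 genes, all far above control. GNBP2, of the glucan-binding family, lay the other way, with 86.5, 58.7 and 50.03 in overexpression, 122.7, 178 and 162 in RNAi and 11.4, 6.72 and 6.24 in control libraries, 2.37-fold lower in overexpression (log2 difference -1.25, SE 0.29, limma adjusted p = 0.00675). CG15046, whose gene lies 3677 bases from Hayan, was 2.26-fold lower in overexpression (log2 difference -1.18, SE 0.23, limma adjusted p = 0.0027). Np, a further serine protease given with its neighbour CG8172, did not pass. Hayan shares 36.2% of its exon bases with an antisense noncoding gene.

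Of the 4 members of the signalling list, pip lay on opposite sides of control, egr passed, and cv-c and fj did not. Of the 6 members of the cytoskeleton list, 2 were on opposite sides and 4 were lower than control in both, of which qua passed. These are 1 of 3 and 1 of 4 genes on the same side, beside 49.6% of the 139, and lists of this size allow no reading against it. egr, the Drosophila tumour necrosis factor, had 1165, 874 and 1342 in overexpression, 249, 398 and 572 in RNAi and 161, 147 and 228 in control libraries, 2.77-fold higher in overexpression (log2 difference 1.53, SE 0.34, limma adjusted p = 0.00559). Pvr, a receptor for PDGF and VEGF related ligands that is on neither list, had 329, 176 and 283 in overexpression, 551, 461 and 519.5 in RNAi and 108, 117 and 94.8 in control libraries, 1.94-fold lower (log2 difference -1.001, SE 0.28, limma adjusted p = 0.0154). RNAi libraries of Pvr were above all overexpression libraries. qua, of the villin family of actin-bundling proteins, had 763, 782 and 1087 in overexpression, 1668, 1369 and 1638 in RNAi and 2845, 4253 and 3656 in control libraries, 1.78-fold lower in overexpression (log2 difference -0.84, SE 0.22, limma adjusted p = 0.0109). The formin Frl, the myosin Myo31DF and the rootletin Root had log2 differences with 95% intervals of -0.89 to 0.30, -0.88 to 0.44 and -0.79 to 0.43. The planar polarity kinase fj and the RhoGAP cv-c had intervals of -0.59 to 0.89 and -0.90 to 1.07. For cv-c, overexpression library 2 held 186 normalized counts against 508 and 530.0 in the other two, and without it overexpression was higher (limma adjusted p = 0.0462, range 0.0462 to 0.992).

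**Figure D4:**
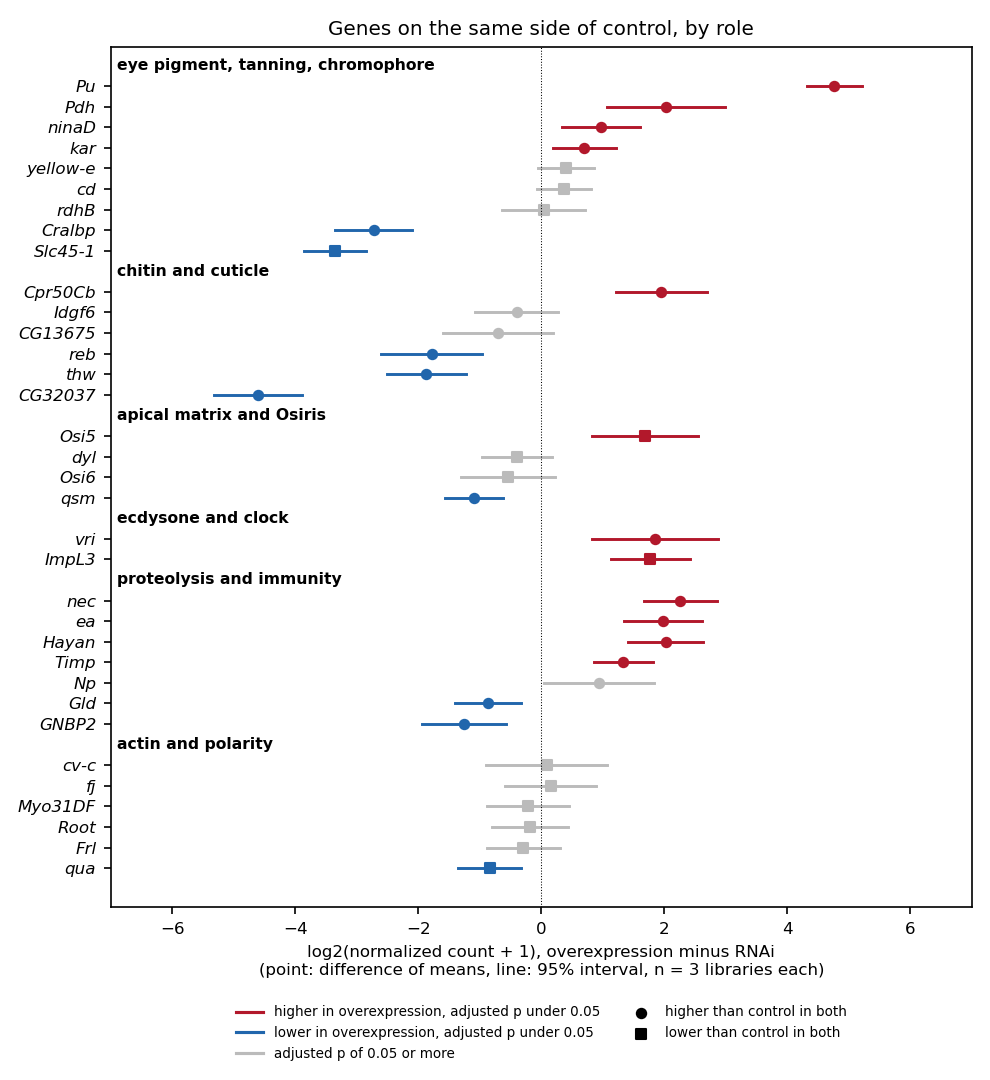
Log2 difference of overexpression minus RNAi with its 95% interval for named genes on the same side of control, arranged by role in groups chosen after their values were seen; circles are higher than control in both genotypes, squares lower in both, and grey marks an adjusted p of 0.05 or more. Pu lies at 4.76 and CG32037 at -4.60. Of the actin and polarity genes qua passed the test and the others did not. Over all 139 genes on the same side 70 did not pass, and so small a group allows no reading against that share.

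By the function classes that the authors assigned, each class with at least 8 genes on the same side of control held genes called in both directions. Enzymes were the largest class, with 61 of the 179 genes; of the 47 on the same side of control, 12 were higher in overexpression and 7 lower. Genes of unknown function numbered 28, with 9 higher and 7 lower among 25. Secreted proteins had 2 higher and 2 lower among 13, with 9 not called. Cell surface genes had 5 higher and 4 lower among 12, transporters 4 higher and 2 lower among 9, and transcription factors 1 higher and 3 lower among 8. These counts stand against 38 higher and 31 lower among all 139. The class of a gene differed between the authors' tables for RNAi and overexpression in 40 of 179 genes, and the RNAi entry was used.

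The deposited tables also give the stage at which each gene normally peaks. Of 138 members with an entry, 44 peak in the 2 d pupa, the age sampled here (31.9%), 38 earlier (27.5%) and 56 later (40.6%). Over all listed genes the shares were 28.6%, 31.6% and 38.0% of 576. Genes higher than control in both genotypes peaked later in 35 of 69 and at 2 d in 10. Genes lower than control in both peaked at 2 d in 23 of 39 and later in 11. Within the genes higher in both, those higher in overexpression than in RNAi peaked earlier in 13 of 25 and later in 9, and those lower in overexpression peaked earlier in 4 of 16 and later in 10. The RNAi entry was used, or the overexpression entry where that was blank. The 2 entries conflicted in 4 members, 2 in each of the groups just compared. CG12995 and CG14752, counted as earlier, peak at the 3d pupa by the overexpression entry. These shares are descriptions and were not tested.

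A mark for Blimp-1 sites stands beside 76 of the 179 genes (42.5%), against 158 of all 373 listed for RNAi (42.4%). It was carried by 9 of the 13 genes lower in overexpression and higher in RNAi (69.2%), obst-A, verm, Gasp, CR45273 and Osi11 among them, and by 8 of the 27 with the reverse pattern (29.6%), including ImpL1 and CG2016. The share was 27 of 78 among genes higher in both (34.6%) and 32 of 61 among genes lower in both (52.5%). A mark for sites of Slbo, a C/EBP transcription factor, stood beside 59 genes (33.0%) but 1 of the 13, Gasp (7.69%). No source used here says how these sites were found.

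Members that are neighbours in the genome did not always move together. Within 10 kb of each other lay 13 pairs holding 22 genes, 7 pairs on the same side of control and 6 not. ImpL1 and CG14107 begin 1418 bases apart on opposite strands. ImpL1 was on opposite sides of control, while CG14107 was lower than control in both, with 3408, 3975 and 3618 in overexpression, 1689, 1624 and 1512 in RNAi and 8266, 11366 and 11370.3 in control libraries. It was 2.28-fold higher in overexpression than in RNAi (log2 difference 1.19, SE 0.17, limma adjusted p = 0.000599), so at both genes overexpression libraries lay above all RNAi libraries. Np and CG8172, 646 bases apart on 1 strand, were on different sides of control. Np, a transmembrane serine protease that shapes apical matrix, had 1077, 452 and 859.8 in overexpression, 312, 348 and 554 in RNAi and 79.9, 60.5 and 68.6 in control libraries and did not pass (log2 difference 0.93, SE 0.38, limma adjusted p = 0.07), although edgeR called it higher in overexpression (adjusted p = 0.0132, range 0.0132 to 0.196). CG8172 had 1539, 1300.0 and 1225 in overexpression, 2885, 2288 and 2115 in RNAi and 6283, 5349 and 5285 in control libraries, 1.79-fold lower in overexpression (log2 difference -0.84, SE 0.20, limma adjusted p = 0.0084).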

How the data were processed

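Per the labels' protocols, stranded mRNA libraries were made from retinas and optic lobes, 3 per genotype. Per the submitters' processing notes, reads were handled on build dm6 with DESeq2, bedtools 2.26.0, Subread 1.6.3, Picard 2.18.20 and STAR 2.6.1d, with no role or setting stated. The authors deposited normalized counts per library, a signal in which reads were divided by 1 factor per library, beside the log2 of control over altered genotype and its adjusted p-value. Here that sign was reversed.

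The members and lists were chosen with earlier results of these data known. Members were matched by symbol across the tables, 2 symbols altered by a text replacement having been restored by identifier; 177 of 179 were placed in the Ensembl BDGP6.54 annotation. Values were whole multiples of 1 read in 100% of entries of every library within 0.02 reads, and the totals bear on the listed genes alone, so whole library depth is unknown. SDs hold counting error and the spread between libraries.

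Overexpression was compared with RNAi on log2(normalized count + 1) by limma 3.58.1 (lmFit, eBayes with trend) in R 4.3.3, 3 against 3 libraries, two-sided, with Benjamini-Hochberg adjustment over 179 genes and a call at adjusted p under 0.05. Differences are on that scale and understate those of low genes; folds are ratios of group means without pseudocount. Genes named are the 5 largest called differences per side and direction, the 4 smallest not called, the 6 largest per direction on opposite sides, all averaging 20 or more normalized counts over the 6 libraries, the members of the gene lists and function classes, and the members nearest the listing limit. Genes named for their neighbours, and the role groups of the plot by role, were chosen after their values were seen. edgeR 4.0.16 quasi-likelihood tests on the recovered reads were an alternative and called 42 genes higher and 32 lower of the 139 on the same side of control, against 38 and 31 by limma. Scripts were tested on simulated data.

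Replicate numbers were checked for pairing. Deviations from the group means correlated at 0.312, 0.590 and 0.205 across members between overexpression and RNAi libraries of the same number, against -0.468 to 0.106 between those of different numbers. The 3 same-number values exceeded the limit of 0.1 set for pairs, but so did the 0.106 between different numbers. Each overexpression library correlated most with the RNAi library of its own number, but not every one did so with the control library of its number. With control libraries, same-number values ran from -0.008 to 0.485 and different-number values from -0.542 to 0.422. Whether the numbers pair the libraries is therefore not settled. Calls, SEs and intervals are from the fit without pairs unless stated. The fit with replicate number as a block is an alternative, given where it changes a call.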

Additional observations from a re-analysis of the deposited data

How the results depend on the processing

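The counts of same-side genes higher and lower in overexpression stayed within 1.5 times under every alternative tried: pseudocounts of 0.5 and 5, a mean of at least 20 normalized counts, edgeR on recovered reads, TMM factors, the replicate block, control libraries in the fit, adjustment over the 139 same-side genes, and leaving out each library. Leaving out 1 library gave 23 to 29 genes higher and 17 to 20 lower in overexpression among genes higher than control in both, and 10 to 14 and 10 to 13 among genes lower in both. With replicate number as a block, 31 genes were higher and 21 lower in overexpression among genes higher than control in both. Among genes lower in both, the counts were 13 and 13. The block added 9 calls among same-side genes and lost 0. Besides cd, yellow-e and dyl, the named genes it added were CG10352, CG14301, CG40485, RpS5b and atk. For genes on opposite sides, the median log2 difference of the 27 was 3.48 with a pseudocount of 5 and 3.31 with TMM, against 3.68, and 3.52 to 3.81 leaving out 1 library. That of the 13 was -3.48 with TMM, against -3.16, and -3.38 to -3.11 leaving out 1 library. No named gene that was called or lay on opposite sides of control changed sign, and 14 named genes that did not pass did. Over 122 named genes and 1672 gene and setting combinations, 36 gained a call, 28 lost one and 28 values moved. Without RNAi library 2, Gld, lower in overexpression, had a limma adjusted p of 0.0520 (range 0.00111 to 0.052 over all alternatives). The causes were not tested. In 4 members there were 3 or fewer reads over a genotype, and depth limits what can be said of them.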
